A study of Mus musculus with 12 samples.

Results

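Hematopoietic stem cells (HSCs) from mice that lacked the inflammatory caspases were compared with and without the Emu-myc transgene. The 3 libraries of group CE (CE1, CE2 and CE3) came from Emu-myc Casp1 -/- Casp11 -/- mice, and the 3 libraries of group C (C1, C2 and C3) from Casp1 -/- Casp11 -/- mice without the transgene. These 6 libraries, chosen by the genotype in their titles, belong to a series of 12, with 1 library per mouse and 3 mice per genotype. The other 6 are Emu-myc mice (group E) and Wild-type mice (group WT) with intact caspases. They are used below mainly for the same transgene comparison on that background. All mice were C57BL/6J, total RNA of sorted cells was sequenced, and the sources used here give no ages.

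Emu-myc places the Myc oncogene under the enhancer of the immunoglobulin heavy chain gene, which is active mainly in the B lineage, so an HSC population is not the main cell type in which the transgene is driven. Mice with this transgene are a model of B-cell lymphoma. Caspase-1 and caspase-11 cut gasdermin D, the pore protein of pyroptosis, and caspase-1 also matures interleukin-1 family cytokines. Every mouse of the comparison carried the caspase knockout by its label, so the comparison asks what the transgene changes on that genotype.

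The 6 libraries held 28271055 to 34065910 counts. More genes had a count in C1 (22900) and C3 (21247) than in the other 4 libraries (17310 to 18863). Levels are in CPM, the usual per-library scaling of counts, here with TMM-adjusted totals. Y-linked transcripts summed to 0.263 CPM in CE3 and to 91.4 to 121.5 CPM in each of the other 5 libraries, while Xist was at 950.5 CPM in CE3 and at 0.836 to 1.09 CPM in the other 5. Group CE therefore held both sex patterns, and group C only the Y-positive one. Of the usual surface markers of mouse HSCs, Kit was at 420 to 508 CPM in the 6 libraries, Ly6a (Sca-1) at 23.2 to 33.2, Procr (EPCR) at 11.3 to 18.4 and Slamf1 (CD150) at 3.49 to 5.05. Transcripts of multipotent and myeloid progenitors were abundant too. Cd34 was at 1007 to 1157 CPM, Flt3 at 436.4 to 515.5 and Cd48 at 100 to 128.3, and the neutrophil marker list summed to 9606 to 13390 CPM. The labelled population thus carried HSC markers beside those of later progenitors.

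The targeted genes were at like levels in both groups, which share the knockout. Casp1 was at 6.39, 5.10 and 6.20 CPM in C1, C2 and C3 and at 5.88, 6.76 and 5.72 in CE1, CE2 and CE3, against 29.8 to 47.8 CPM in the 6 libraries with intact caspases. Casp4, the symbol under which Casp11 is annotated, was at 7.07 to 9.96 CPM in C and 9.001 to 13.7 in CE, and at 12.04 to 17.2 in E and WT. For Casp4 CE2 lay inside the range of E and WT, and every other knockout library lay below that range. The loss of Casp11 is therefore given by the labels, and the gene counts were lower without fully separating the genotypes. Myc was at 337, 324 and 319 CPM in C and at 347, 345 and 410 in CE. The groups did not overlap for Myc, but the difference was small and did not pass (log2 0.17, SE 0.10, adjusted p = 0.999). A gain of Myc counts was therefore not called, and transgene and endogenous transcripts are not separated in counts per gene.

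Few genes were called in CE against C, and their number depended on the setting, as given below. CE and C also differed in sex pattern through CE3, while CE1 and CE2 had the pattern of C. With CE3 in the group, the differences cannot be assigned to the transgene alone. Of 14473 genes tested, 30 passed at an adjusted p under 0.05 (0.207%), 9 higher in CE (0.0622%) and 21 lower (0.145%). Without CE3, 5 of the 30 passed and all 30 kept their sign. The rises were mostly confined to a short stretch of chromosome 19, with 8 of the 9 genes on that chromosome. Those 8 rose by 1.54-fold to 1.85-fold, and Selp rose by 2.67-fold. The falls ran from 2.17-fold to 7.35-fold, and 10 of the 21 genes belonged to B-cell or lymphoid lists. In all 30 the groups did not overlap, which was so for 14.9% of all genes tested. The nearest libraries of the 2 groups were 1.30-fold to 4.61-fold apart. Over all tested genes the median log2 fold change was 0.008. In bulk libraries fewer cells of a type and less RNA per cell cannot be told apart.

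**Figure D1:**
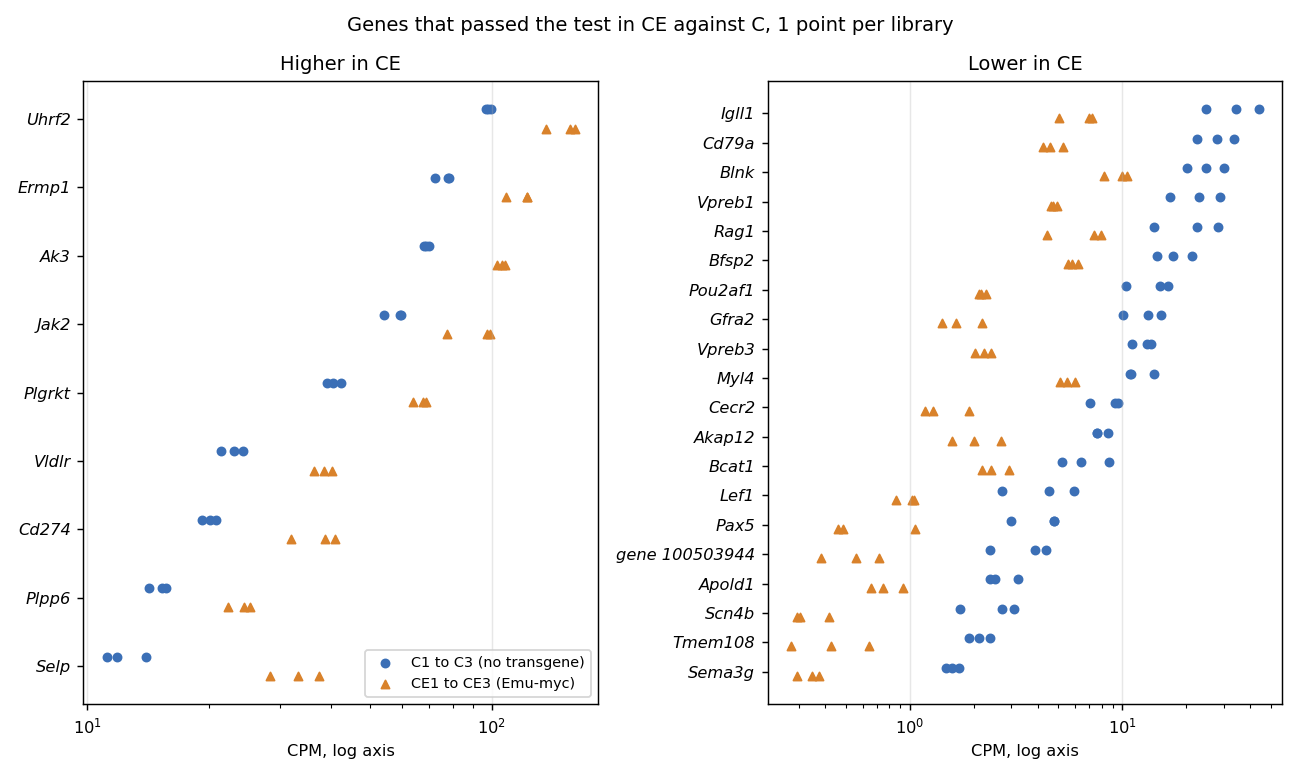
CPM on a log axis (horizontal) of 29 of the 30 genes that passed in CE against C (vertical), with 1 point per library; circles are C1 to C3 and triangles CE1 to CE3. The left panel holds the 9 higher genes and the right panel 20 of the 21 lower genes, and in none of them do the groups overlap.

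The smallest p belonged to the rise of Selp (chr1:164115264-164150026, mm10), the gene of P-selectin, an adhesion receptor of platelets and endothelium that is also carried by some stem cells. It was at 11.2, 13.98 and 11.9 CPM in C1, C2 and C3 and at 28.3, 33.2 and 37.5 CPM in CE1, CE2 and CE3. The lowest CE library was 2.02-fold above the highest C library. The rise was 2.67-fold (log2 1.42, SE 0.14, adjusted p = 0.000509). Selp was also the only member of the megakaryocyte and platelet list to pass. The other 21 tested members of that list were not called, the median of its 22 tested members was log2 -0.05, and Gng11, next in the order of p, was at log2 0.39 (adjusted p = 0.486).

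Genes of the early B lineage fell together. The surrogate light chain is a stand-in for the immunoglobulin light chain in pro-B and pre-B cells, and its parts are encoded by Igll1 and Vpreb1. Igll1 was at 24.8, 44.0 and 34.4 CPM in C and at 6.95, 7.24 and 5.03 in CE, a fall of 5.37-fold (adjusted p = 0.009). Vpreb1 was at 16.8, 28.9 and 22.9 CPM in C and at 4.91, 4.62 and 4.73 in CE (4.81-fold, adjusted p = 0.009). Vpreb3, a related pre-B gene, was at 11.1, 13.6 and 13.0 CPM in C and at 2.42, 2.24 and 2.04 in CE (5.63-fold, adjusted p = 0.009). The CE libraries lay close to each other in all 3 genes, while C1 was the lowest C library each time. Vpreb2, a near-identical copy of Vpreb1 with which it may share reads, was at 2.94, 6.05 and 4.15 CPM in C and 1.28, 1.29 and 0.591 in CE, and lay just outside the threshold (adjusted p = 0.0799).

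The signalling proteins of the B-cell receptor followed. Cd79a, which encodes a signalling chain of the receptor, was at 22.4, 33.6 and 28.0 CPM in C and 4.22, 5.23 and 4.57 in CE (5.99-fold lower, adjusted p = 0.00708). Blnk, the adaptor that links the receptor to its downstream enzymes, was at 20.1, 30.1 and 24.8 CPM in C and 9.995, 8.19 and 10.5 in CE, a 2.61-fold fall (log2 -1.39, SE 0.25, adjusted p = 0.0342). Other genes of the pathway differed less. Cd79b was at log2 -0.29, Btk at -0.06 and Plcg2 at 0.07, none of which passed. Of the 21 B receptor and signalling genes, 19 were tested. Of these 6 passed lower, against 0.145% of all genes tested, and none higher. Below 0 were 17 of the 19, against 6911 of all 14473 genes tested. The lists here and below were chosen with earlier results of these data known, so such counts describe them and are no test. The median was log2 -0.54, which was -0.34 without C1 and -0.90 without C2.

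Among the transcription factors, Pax5, which commits cells to the B lineage, was at 3.01, 4.77 and 4.76 CPM in C and 0.484, 1.05 and 0.460 in CE (6.25-fold lower, adjusted p = 0.0137). Pou2af1, the B-cell coactivator of octamer-binding factors, was at 10.4, 16.3 and 15.0 CPM in C and 2.11, 2.28 and 2.17 in CE (6.37-fold, log2 -2.67, SE 0.45, adjusted p = 0.0246). Lef1, a Wnt pathway factor used by pro-B cells, was at 2.73, 4.50 and 5.95 CPM in C and 0.865, 1.02 and 1.05 in CE (4.48-fold, log2 -2.16, SE 0.38, adjusted p = 0.0322). For each of these factors the highest CE library was below the lowest C library. Ebf1, the factor upstream of Pax5, was at 3.87, 5.84 and 4.95 CPM in C and 0.726, 1.36 and 0.690 in CE, yet did not pass (log2 -2.40, adjusted p = 0.123). The broadly expressed factors Tcf3, Ikzf1 and Bcl11a were at log2 -0.08, -0.07 and 0.02. Of the 15 B transcription factors 3 passed lower, against 0.145% of all genes tested, and none higher. Below 0 were 12 of the 15, against 6911 of all 14473 genes tested, and the median was log2 -0.38. That median rested on single libraries, at -0.20 without C3, -0.22 without CE3 and -0.68 without CE1.

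Earlier lymphoid genes differed less as a list, though not in each member. Rag1, the recombinase gene that cuts antigen receptor loci, was at 14.03, 28.3 and 22.6 CPM in C and 7.37, 7.92 and 4.40 in CE, a 3.30-fold fall (log2 -1.72, SE 0.31, adjusted p = 0.0337). In WT2, WT3 and WT4 Rag1 was at 4.71, 9.97 and 4.895 CPM, a mean of 6.53 against 6.56 in CE and 21.6 in C. Rag1 was the only one of the 15 lymphoid priming genes to pass, and the median of that list was log2 -0.13, or -0.02 without C3. Dntt, which adds bases at receptor joints, was at 520.2, 628.4 and 573.9 CPM in C and 543.5, 345.1 and 412.4 in CE, so the groups overlapped. Ly6d and Rag2, next after Rag1 in the order of p, were at log2 -1.81 and -0.61 and did not pass. In 3 of the 15 genes, Rag1, Ly6d and Rag2, the CE libraries lay below the C libraries, which held for 7.86% of all genes tested. Flt3, Cd34 and Cd27 were at log2 0.02, 0.07 and 0.15. Of the 15 genes 7 were above 0 and 8 below. All 9 plasma cell genes tested missed the threshold, with a median of log2 -0.24, which was -0.08 without C3 or without CE2 and 0.06 without C1 and C3 together.

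The promoters of these genes were read for 3 short letter strings. They are ATGCAAAT, the octamer to which the partners of POU2AF1 bind (ATTTGCAT on the other strand), CCCNNGGG, a palindrome at the core of EBF1 sites, and CACGTG, the palindromic E-box of MYC and MAX. The window ran from 250 bases before to 50 after the RefSeq start of transcription (GRCm38.p6, the assembly of mm10), and both strands were searched. A promoter was listed for 9 of the 10 lower genes of the B and lymphoid lists. The octamer was in 2 of the 9 (Vpreb3 and Blnk), CCCNNGGG in 1 (Igll1) and CACGTG in 1 (Lef1, in 1 of its 4 promoters). Of all 21 lower genes 16 had a promoter, and among them CCCNNGGG was also in Sema3g and Tmem108 (3 genes in all) and CACGTG also in Tmem108 (2 in all). Of the 9 higher genes CCCNNGGG was in 1 (Selp) and the other strings in none. Counted in the same way, by genes with the string in any promoter, the octamer was in 1.97% of the 27025 genes of the table, CCCNNGGG in 15.4% and CACGTG in 8.09%. The promoters with an octamer or a CCCNNGGG in the B-lineage genes, and that of Selp as the gene with the smallest p, are printed 5′ to 3′ on the strand of the gene, with the string in capitals. They lie at chr10:75948050-75948349 (plus strand), chr19:40994172-40994471 (minus strand), chr16:16863936-16864235 (minus strand) and chr1:164115014-164115313 (plus strand).
Vpreb3: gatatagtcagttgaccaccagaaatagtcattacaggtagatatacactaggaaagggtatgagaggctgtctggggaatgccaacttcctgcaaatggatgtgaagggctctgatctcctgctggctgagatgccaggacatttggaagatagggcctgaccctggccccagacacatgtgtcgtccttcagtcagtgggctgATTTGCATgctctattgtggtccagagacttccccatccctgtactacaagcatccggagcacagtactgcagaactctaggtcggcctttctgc
Blnk: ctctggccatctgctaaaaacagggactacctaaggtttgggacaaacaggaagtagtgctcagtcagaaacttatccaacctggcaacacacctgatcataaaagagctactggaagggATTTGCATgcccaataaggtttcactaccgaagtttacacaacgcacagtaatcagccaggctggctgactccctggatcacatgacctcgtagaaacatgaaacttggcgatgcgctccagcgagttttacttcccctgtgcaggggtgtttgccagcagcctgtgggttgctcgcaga
Igll1: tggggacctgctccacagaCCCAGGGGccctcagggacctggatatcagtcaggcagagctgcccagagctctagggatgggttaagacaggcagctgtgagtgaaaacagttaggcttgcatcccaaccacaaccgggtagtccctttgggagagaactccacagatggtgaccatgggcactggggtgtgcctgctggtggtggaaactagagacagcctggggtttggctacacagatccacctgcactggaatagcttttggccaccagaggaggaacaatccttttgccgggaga
Selp: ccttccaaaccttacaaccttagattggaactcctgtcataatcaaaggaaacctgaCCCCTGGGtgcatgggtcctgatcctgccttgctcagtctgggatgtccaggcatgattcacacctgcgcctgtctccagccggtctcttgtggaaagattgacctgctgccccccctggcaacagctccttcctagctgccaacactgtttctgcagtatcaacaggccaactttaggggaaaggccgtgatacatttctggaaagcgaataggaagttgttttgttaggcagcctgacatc
The octamer began 45 bases before the start in Vpreb3 and 130 bases before it in Blnk. CCCNNGGG began 231 bases before the start in Igll1 and 193 bases before it in Selp. In these 4 windows no string overlapped another, and binding was not measured.

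The other 11 lower genes were in none of the lists. Bfsp2 and Tmem108 are neighbours on chromosome 9 (chr9:103424924-103480405 and chr9:103482936-103761900). Bfsp2, known as a filament protein gene of the lens, was at 14.5, 21.2 and 17.3 CPM in C and at 6.19, 5.54 and 5.78 in CE (3.03-fold, log2 -1.60, SE 0.19, adjusted p = 0.00293). Tmem108, a transmembrane protein gene, was at 2.38, 2.12 and 1.90 CPM in C and 0.277, 0.646 and 0.427 in CE (4.70-fold, adjusted p = 0.0137). Cdv3, on the other side of Bfsp2, was at log2 -0.25. The transcript 5830418P13Rik overlaps Bfsp2, and it was at log2 -0.51 and did not pass.

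Gfra2, the receptor gene for the growth factor neurturin, was at 10.02, 13.2 and 15.2 CPM in C and 1.42, 2.18 and 1.64 in CE (7.32-fold lower, adjusted p = 0.00708). The gap between the nearest libraries of the groups was 4.61-fold, the largest of the 30 genes. Cecr2, a chromatin remodelling gene, was at 7.05, 9.27 and 9.51 CPM in C and 1.18, 1.90 and 1.28 in CE (5.91-fold lower, adjusted p = 0.0335). Akap12, a scaffold of protein kinase A, was at 7.57, 7.63 and 8.58 CPM in C and 2.70, 2.01 and 1.58 in CE (3.79-fold, log2 -1.92, SE 0.32, adjusted p = 0.0228). Bcat1, the cytosolic aminotransferase of branched-chain amino acids, was at 5.18, 8.65 and 6.40 CPM in C and 2.42, 2.18 and 2.92 in CE (2.69-fold, adjusted p = 0.0425). Myl4, a myosin light chain gene, had the smallest fall, 2.17-fold from 12.02 ± 1.83 to 5.53 ± 0.44 CPM (SD, n = 3 each, adjusted p = 0.0392).

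The remaining lower genes were near the low end of the range. Scn4b, a sodium channel subunit gene, was at 1.73 to 3.09 CPM in C and 0.296 to 0.415 in CE, and its fold was the largest of the 30 (7.35-fold, log2 -2.88, SE 0.48, adjusted p = 0.0245). Apold1, known from endothelium, was at 2.38 to 3.22 CPM in C and 0.657 to 0.934 in CE (3.47-fold, adjusted p = 0.0322). Sema3g, a semaphorin gene, was at 1.49 to 1.70 CPM in C and 0.296 to 0.374 in CE (4.66-fold, adjusted p = 0.0335). Gene 100503944, for which no symbol was matched, was at 2.38 to 4.37 CPM in C and 0.380 to 0.714 in CE (adjusted p = 0.0337). In all, 7 of the 21 lower genes had a C mean under 5 CPM. The lowest C library was C1 for 19 of the 21, and the highest was C2 for 13 and C3 for 7.

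On chromosome 19 the rises formed a block around Jak2. Vldlr (chr19:27216480-27254231) lay apart at its left, and 5 tested genes followed it with a median of log2 -0.03 and none called. The last of them, 4430402I18Rik, starts before Plpp6 and spans it. It was at log2 -1.16, with low levels and groups that overlapped (0.089 to 1.002 CPM in C, 0.104 to 0.394 in CE). From Plpp6 to Uhrf2 (chr19:28963920-30093726) came 17 tested genes in a row, all above 0, with a median of log2 0.66 and a range of 0.20 to 1.05. In 16 of the 17 the CE libraries lay above the C libraries, which held for 7.03% of all genes tested, and 7 of them passed. The stretch was drawn between called genes, Plpp6 and Uhrf2, so these counts describe it and are no test of it. The next 10 tested genes had a median of log2 0.13, with Cstf2t at 0.50 (adjusted p = 0.167) and Prkg1 at 0.34. The 10 tested genes before Vldlr had a median of log2 -0.02. Blnk, which fell, is on the same chromosome but far from the block, and the 52 tested genes from Prkg1 to Blnk had a median of log2 -0.02.

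The members of the block have unlike roles, and the 7 that passed rose by 1.54-fold to 1.85-fold. Jak2, a kinase that signals from many cytokine receptors, was at 59.4, 54.0 and 59.6 CPM in C and 97.4, 98.7 and 77.4 in CE (1.58-fold higher, adjusted p = 0.0384). Cd274, which encodes the checkpoint ligand PD-L1, was at 20.1, 19.3 and 20.9 CPM in C and 38.7, 40.9 and 31.9 in CE (1.85-fold higher, adjusted p = 0.0141). Pdcd1lg2, the gene of the second PD-1 ligand, had the largest fold of the block but did not pass (2.04 to 2.19 CPM in C, 3.91 to 5.05 in CE, adjusted p = 0.143). In Jak2 and Cd274 CE3 was the lowest CE library, yet above all of C.

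Ak3, whose product is an adenylate kinase of mitochondria, was at 67.8, 70.1 and 68.6 CPM in C and 107.9, 103.1 and 105.9 in CE (1.54-fold, log2 0.62, SE 0.08, adjusted p = 0.00708). Uhrf2, a ubiquitin ligase gene tied to DNA methylation, was at 97.0, 97.6 and 99.5 CPM in C and 160.3, 156.0 and 136.4 in CE (1.54-fold, log2 0.62, SE 0.09, adjusted p = 0.009). Ermp1, an endoplasmic reticulum peptidase gene, was at 72.5 to 78.6 CPM in C and 108.1 to 122.4 in CE (1.54-fold, adjusted p = 0.0322). The folds of these 3 genes were within 0.01 of each other on the log2 scale. Plgrkt, a plasminogen receptor gene, was at 39.2 to 42.4 CPM in C and 64.0 to 68.9 in CE (1.64-fold, adjusted p = 0.0141), and Plpp6, a lipid phosphatase gene, at 14.2 to 15.7 and 22.3 to 25.3 (1.60-fold, adjusted p = 0.0245). Vldlr, the very low density lipoprotein receptor gene, was at 21.4 to 24.3 CPM in C and 36.3 to 40.3 in CE (adjusted p = 0.0381). Plgrkt overlaps Cd274, Cdc37l1 and 1700018L02Rik overlap Ak3, and 4430402I18Rik overlaps Plpp6. Reads of these neighbours may be split between them, as the sources used here do not give the strand setting of the counting. Of the block, Cdc37l1 and Ric1 lay just outside the threshold (adjusted p = 0.0742 and 0.0799).

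**Figure D2:**
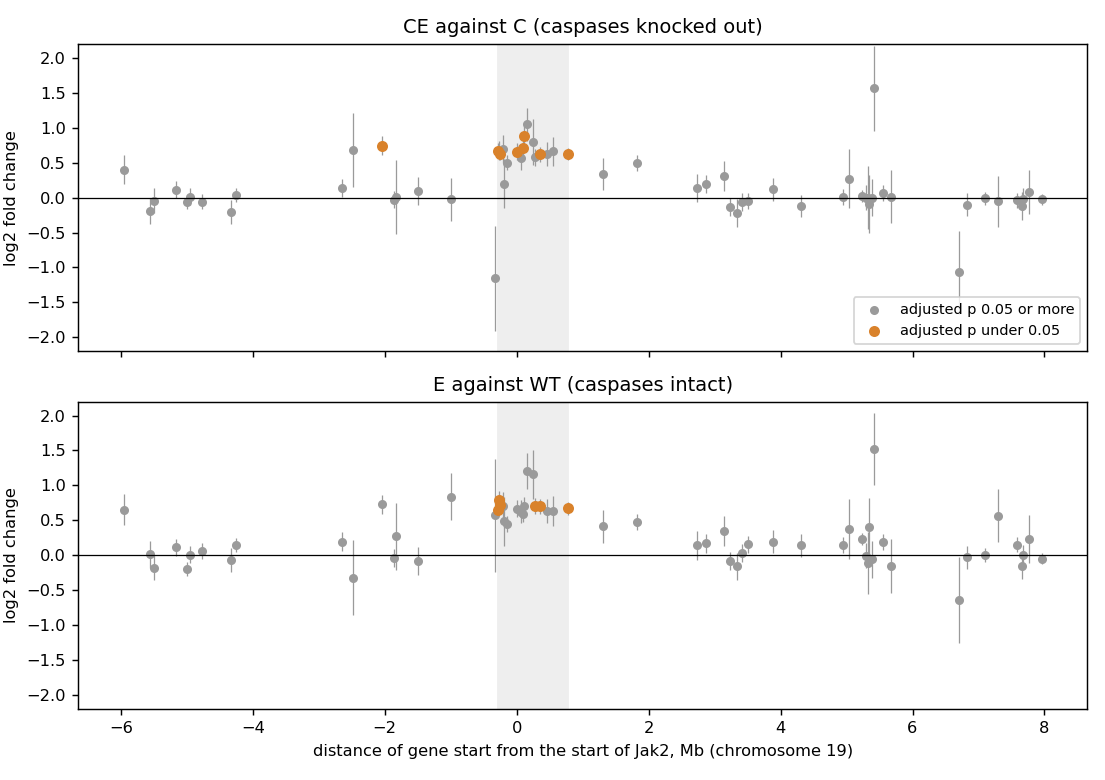
Log2 fold change with its standard error (vertical) of each tested gene against the distance of its start from the start of Jak2 in Mb (horizontal), for CE against C above and E against WT below; genes that passed are orange and the grey band runs from Plpp6 to Uhrf2. The 17 genes of the band lie above 0 in both comparisons, with medians of 0.66 and 0.67, and Vldlr stands apart at the left.

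Genes of stem cell identity leaned the other way from the B genes, with small differences. All 30 HSC identity genes were above 0, against 52.2% of all genes tested, with a median of log2 0.26 and a range of 0.06 to 0.82, but none passed. In 17 of the 30 the CE libraries lay above the C libraries, which held for 7.03% of all genes tested. This list and the erythroid list below were also chosen with earlier results known, so their counts are no test. Summed over the list, C1, C2 and C3 held 2689, 2713 and 2737 CPM and CE1, CE2 and CE3 held 3145, 3051 and 3099. Mecom, a stem cell transcription factor, was at 11.4, 10.7 and 12.8 CPM in C and 20.3, 17.7 and 15.1 in CE (log2 0.61, SE 0.15, adjusted p = 0.255). Procr was at 13.5, 11.3 and 12.2 CPM in C and 18.4, 17.2 and 18.2 in CE (log2 0.54, adjusted p = 0.521). Hlf, another stem cell factor, was at 101, 99.6 and 112.3 CPM in C and 144.5, 130.8 and 128.7 in CE (log2 0.37, adjusted p = 0.547). Without CE3 the median of the list was log2 0.22, and without C1 and C3 together it was 0.26.

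Erythroid genes were lower in level, again with none past the threshold. All 24 tested members were below 0, against 6911 of all 14473 genes tested, with a median of log2 -1.05. In 17 of them the CE libraries lay below the C libraries, which held for 7.86% of all genes tested. The list summed to 772.2, 700.8 and 769.8 CPM in C and to 640.1, 536.9 and 491.0 in CE. Car1, a carbonic anhydrase of red cell precursors, was at 91.8, 73.4 and 90.4 CPM in C and 45.5, 28.6 and 22.9 in CE (log2 -1.40, SE 0.40, adjusted p = 0.423). The water channel gene Aqp1 was at 107.7, 92.0 and 104.5 CPM in C and 68.4, 58.8 and 62.7 in CE. Klf1, the master factor of red cell genes, was at log2 -0.71, while Gata1 and Tfrc were at -0.27 and -0.29. The defining red cell genes were near 0, with Hba-a1 at 0.788 to 3.54 CPM over the 6 libraries. Without CE3 the median was log2 -0.85, and without C1 and C3 together it was -0.74.

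**Figure D3:**
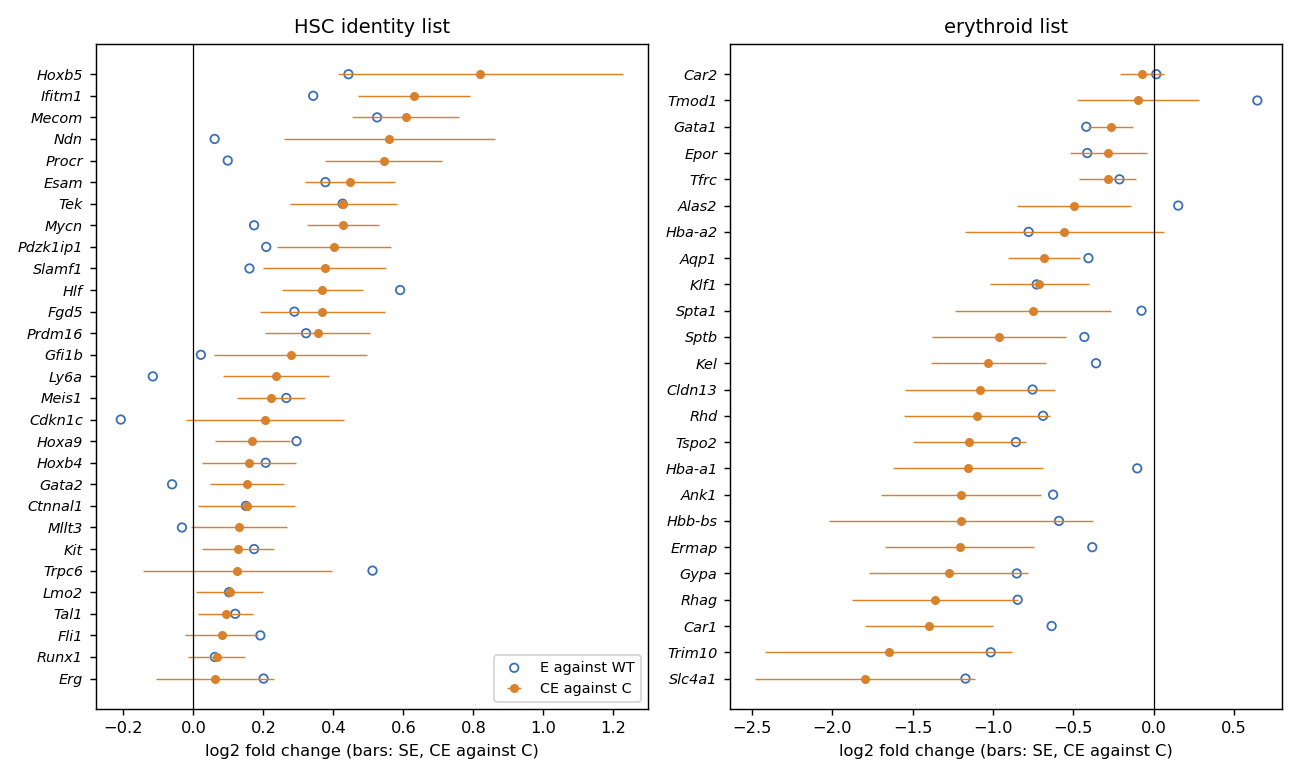
Log2 fold change (horizontal) of 29 of the 30 tested members of the HSC identity list (left) and all 24 tested members of the erythroid list (right); filled points with bars are CE against C with its standard error and open circles are E against WT. In CE against C all 29 HSC members drawn lie above 0 and all 24 erythroid members below it.

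Proliferation and growth genes differed little. All 30 G2/M genes were below 0, against 6911 of all 14473 genes tested, but none passed, and the median was log2 -0.14. Their sum was 3594 to 3641 CPM in C, 3477 in CE1, 3538 in CE2 and 2833 in CE3, and without CE3 the median was -0.05. The direction of the list thus held without CE3, and its size did not. Ribosome biogenesis genes that MYC is known to raise were below 0 in 44 of 46, against 6911 of all 14473 genes tested, with a median of log2 -0.10. In 9 of the 46 the CE libraries lay below the C libraries, against 7.86% of all genes tested, and none passed. Below 0 were also 28 of 32 S phase, 54 of 64 oxidative phosphorylation and 17 of 20 synthetase genes. The 79 cytosolic ribosomal proteins had a median of log2 0.02, which turned to -0.04 without CE3, and the 12 MYC network genes one of 0.05. Within the network Mycn was at 42.1, 46.6 and 47.3 CPM in C and 55.3, 57.5 and 70.1 in CE (log2 0.43, adjusted p = 0.209).

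Inflammatory genes showed no calls outside the chromosome 19 block. Of 25 tested inflammasome and pyroptosis genes 19 were above 0, against 52.2% of all genes tested, with a median of log2 0.09. The list summed to 816 to 860 CPM in C and 964 to 994 in CE. Most of that gap came from Txnip, a redox regulator that binds NLRP3, which was at 302.2, 293.6 and 325.6 CPM in C and 406.3, 398.7 and 396.5 in CE (log2 0.38, SE 0.12, adjusted p = 0.583). Gsdmd, the gasdermin gene, was at 79.6 to 88.0 CPM in C and 84.1 to 107.3 in CE. The 37 interferon-stimulated genes had a median of log2 0.08 and the 35 interferon-gamma genes one of 0.08, with Cd274 the only member called. Without CE3 the interferon-gamma median was 0.00, the interferon-stimulated median 0.01 and the inflammasome median 0.05. The 26 p53 targets and 16 BCL2 family genes tested had medians of log2 -0.06 and -0.01, the latter with either sign among the alternatives.

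Markers of other cell types were given the same look, since a sort can let other cells through. T and NK genes had a median of log2 -0.25 over 20 tested, and basophil, eosinophil and mast cell genes one of -0.41 over 19. Without CE2 these medians were -0.15 and -0.27. Stromal and endothelial genes had a median of log2 -0.46 over 10 tested of 19, with either sign among the alternatives, and Cxcl12 was at 1.10 to 1.58 CPM in C and 0.033 to 0.408 in CE (adjusted p = 0.156). Neutrophil genes summed to 10640 to 11900 CPM in C, 9803 in CE1, 9606 in CE2 and 13390 in CE3. None of these lists had a gene that passed. Neither did the monocyte, S phase, quiescence, oxidative phosphorylation, glycolysis, synthetase, NF-kB, heat shock, unfolded protein and apoptotic caspase lists, whose medians ran from log2 -0.13 to 0.04, and from -0.15 to 0.06 without CE3. The part of such cells in the B-gene and erythroid differences was not tested.

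**Figure D4:**
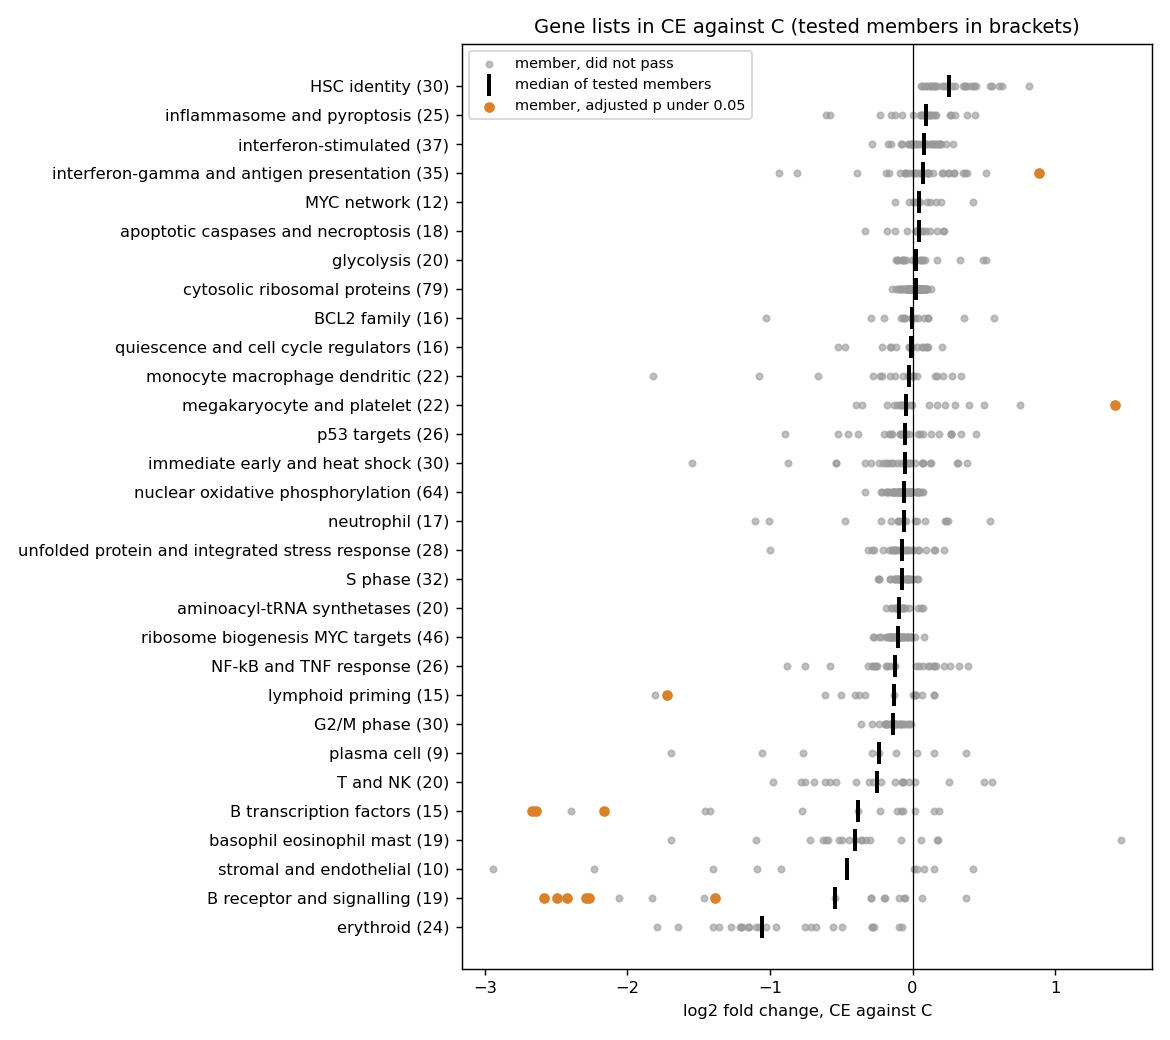
Log2 fold change in CE against C (horizontal) of each tested member of the gene lists, without the Y-linked and X inactivation lists (vertical, with the number tested in brackets); grey points did not pass, orange points passed and black bars are medians. Of the lists drawn, HSC identity has the highest median (0.26) and erythroid the lowest (-1.05), while called members are in the B, lymphoid, megakaryocyte and interferon-gamma lists.

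The same transgene comparison with intact caspases, E against WT, shares no library with CE against C. There 12 genes passed (0.0829%), and 8 of them were among the 30: Selp, Bfsp2, Ak3, Igll1, Uhrf2, Vpreb1, Plpp6 and Ermp1. Both sets of calls came from the same fit of 12 libraries, which shares its estimate of spread. With only E and WT in the fit, 1 gene passed in E against WT. All 30 had the same sign in both comparisons, against 57.7% of all genes tested. In 21 of the 30 the E and WT libraries did not overlap either, against 8.02% of all genes. Across the 14473 genes, which are not independent, the log2 fold changes had r = 0.274. Not all list medians kept their sign. In E against WT that of B transcription factors was log2 0.04 (-0.38 in CE against C), of lymphoid priming genes 0.12 (-0.13) and of plasma cell genes 0.44 (-0.24). The B receptor median was -0.18 (-0.54), the HSC identity median 0.20 (0.26) and the erythroid median -0.51 (-1.05). Whether these medians differ between the backgrounds was not tested.

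The higher genes had like sizes on both backgrounds, with a median of log2 0.67 in CE against C and 0.70 in E against WT. The 17 genes from Plpp6 to Uhrf2 had medians of log2 0.66 and 0.67. The lower genes had a median of log2 -2.27 in CE against C and -1.50 in E against WT, and 19 of the 21 were smaller in size in the latter. In all 21 lower genes the mean of C was also above the mean of WT. The 30 genes were chosen by their difference in CE against C. Such a choice by itself favours smaller values in the other comparison and, for lower genes, high levels in C. Nothing is therefore read from these sizes and levels about the backgrounds. Pou2af1 was the extreme, at 6.42, 6.01 and 3.32 CPM in E1, E2 and E3 and 5.88, 12.9 and 2.12 in WT2, WT3 and WT4 (log2 -0.42 in E against WT). Scn4b and Vpreb1 had falls at least as large with caspases intact (log2 -3.05 and -2.30).

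**Figure D5:**
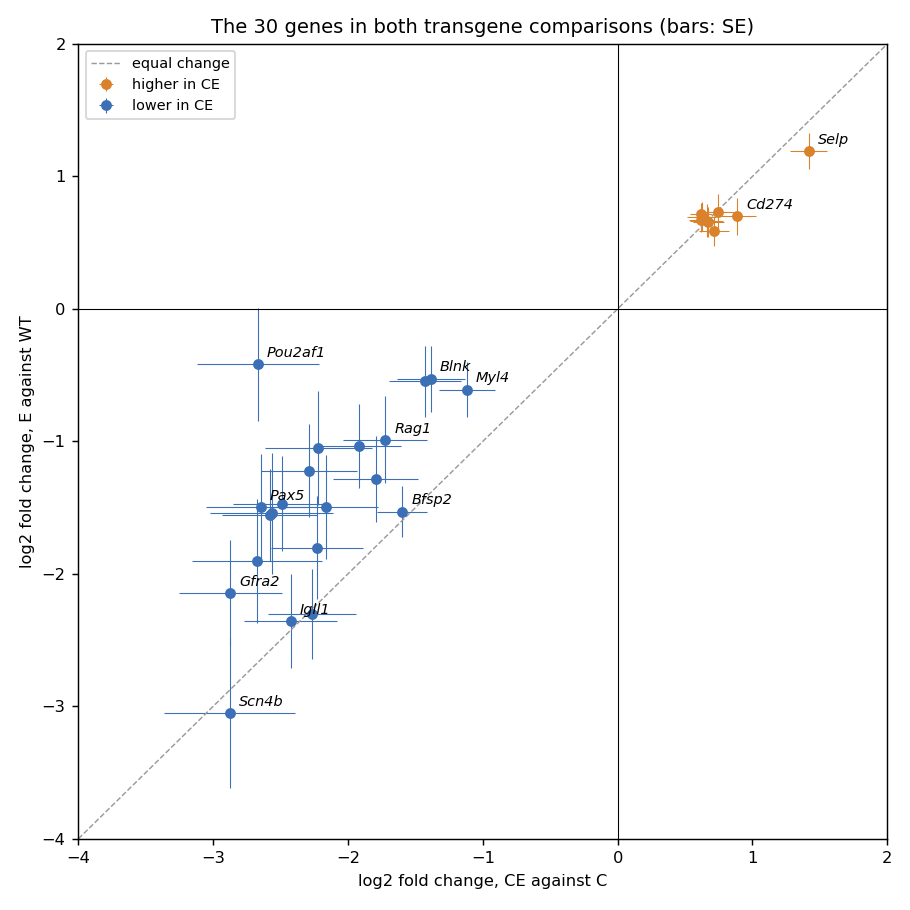
Log2 fold change in E against WT (vertical) against that in CE against C (horizontal) for the 30 genes that passed in the latter, with standard errors; the dashed line marks equal change. The 9 higher genes lie near the line and 19 of the 21 lower genes lie above it, that is, with the smaller fall in E against WT, which the choice of the genes in CE against C favours by itself.

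The difference between the transgene effects was tested gene by gene, and no gene passed (0%). With edgeR 305 genes had an unadjusted p under 0.05, and DESeq2 and limma voom also called 0 genes. For Pou2af1 the difference was log2 -2.25 (SE 0.62, adjusted p = 0.9997), and for Cd79a it was log2 -1.03 (SE 0.48). No gene can therefore be called particular to the caspase knockout background. Of the knockout mice 5 of 6 had the Y-positive pattern, and the E and WT mice had the other, as did CE3. Caspase genotype and sex thus overlap in all libraries but CE3. With a term for Y-linked transcripts, which rests on that library, no gene passed in the difference either (227 at an unadjusted p under 0.05).

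The calls rest on few libraries. Without C1, C2 or C3 the number of genes that passed was 13, 9 and 8, and without CE1, CE2 or CE3 it was 2, 8 and 5. Selp and Bfsp2 alone passed each time. Ak3 was kept in 5 of the 6, Cd79a, Gfra2 and Igll1 in 4, and 14 of the 30 genes in none. With a term for Y-linked transcripts 9 genes passed, all of them among the 30, and without C1 and C3 together none did with edgeR (282 at an unadjusted p under 0.05). That last setting leaves C2 alone in C and takes its spread from the other groups, so its count says little about the stability of the calls. With only the 6 libraries of these groups in the fit, 110 genes passed, 27 higher and 83 lower, and the 30 were among them. The sign of the 30 genes was the same in each of these settings.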

How the data were processed

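Total RNA of sorted HSCs was sequenced in 12 libraries, 1 per mouse. The authors deposited raw counts per gene for 27179 NCBI Gene numbers. STAR 2.5.3 and mm10 are given by the submitters' processing notes, while the sources used here do not name the counter, annotation or strandedness. RefSeq GRCm38.p6 gave symbols and positions for 25275 numbers, and promoter sequences are RefSeq's for the same assembly.

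Libraries held 24529611 to 34065910 counts. All 12 were fitted as group means with edgeR 4.0.16 in R 4.3.3 (TMM factors, filterByExpr, quasi-likelihood F tests, two-sided). The threshold was an adjusted p under 0.05 (Benjamini-Hochberg, 14473 genes). CPM are counts scaled to the effective library size. The genes that passed and have a symbol, Myc, Casp1, Casp4, up to 3 members of each list with the smallest p and the genes of the chromosome 19 stretch were named by rule. A few genes of this rule are not reported here. List members named beyond it, and 5830418P13Rik and Cdv3, were chosen after their values were seen. Members and lists were chosen with earlier results of these data known. Nothing says that the mice of a group came from separate litters, and p-values measure the spread between these libraries. The pipeline was tested on simulated data. Replicates differed by more than sampling noise and none was dropped.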

Additional observations from a re-analysis of the deposited data

How the results depend on the processing

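The number of genes that passed in CE against C was 30 with RLE factors and 26 with at least 1 CPM in 6 libraries. It was 203 with no filter on low counts, 66 with DESeq2, 109 with limma voom, 110 with only the groups compared in the fit, 9 with a covariate for Y-linked transcripts, 0 without C1 and C3 together, and 2 to 13 when each library was left out in turn. With a replicate block 47 genes passed, of which 28 were among the 30. Same-numbered C and CE libraries had correlations of -0.116, -0.166 and -0.112 between their deviations from the group means. Pairs with unlike numbers had correlations of 0.013 to 0.122. The labels state no pairing, and whether same-numbered mice shared a litter or a batch is not known. In E against WT, where 12 passed, the count was 217 with no filter, 52 with DESeq2, 1 with only the groups compared, 28 with the replicate block, and 5 to 21 when each library was left out. The difference between the transgene effects had 39 genes with no filter and 0 in the other settings, 0 to 0 when each library was left out. The cause was not tested in any of these. None of the 30 genes changed sign in a setting that tested it (26 of them with the stricter filter). List medians of HSC identity genes ran from log2 0.22 to 0.35, of erythroid genes from -1.23 to -0.74, of B transcription factors from -0.68 to -0.20, of B receptor genes from -1.39 to -0.34, and of the 17 genes from Plpp6 to Uhrf2 from 0.60 to 0.69. With 3 libraries in a group the spread between mice limits the precision.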

Other observations

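Single immunoglobulin genes stood out in single mice, and those named here were chosen after their values were seen. Igkv4-59, a light chain variable gene, was at 13.4 CPM in CE3 and at 0 in the other 5 libraries of C and CE. Ighv1-81 was at 13.2 CPM in CE3 and at 0.136 to 0.623 in the other 5. Igkv19-93 was at 17.4 CPM in C3 and at most 0.119 in the other 5. Each of these values comes from 1 mouse and has no replicate.

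Some antibody genes separated the groups without passing the test. Ighv11-2, a heavy chain variable gene, was at 4.94, 1.01 and 4.37 CPM in C and at 0.035, 0.034 and 0 in CE (adjusted p = 0.116). Igha, the constant region of IgA, was at 0.173, 1.34 and 0.418 CPM in C and at 17.2, 18.4 and 2.69 in CE (log2 4.25, SE 1.48, adjusted p = 0.645). Ighm, the constant region of IgM, was at 471.8 to 590.8 CPM in C and 328.5 to 498.4 in CE, so its groups overlapped.

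Among the genes that missed the threshold were some of other kinds. Lag3, an immune checkpoint receptor gene, was at 27.3, 25.9 and 25.8 CPM in C and 39.5, 39.0 and 46.9 in CE (log2 0.67, adjusted p = 0.0799). Hoxb3 was at 8.40, 6.80 and 8.48 CPM in C and 11.5, 13.3 and 12.8 in CE (log2 0.67, adjusted p = 0.14). Hspg2, a matrix proteoglycan gene, was at 4.11, 1.25 and 1.90 CPM in C and 0.657, 0.680 and 0.460 in CE (adjusted p = 0.0707).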
